A study of Homo sapiens with 15 samples.

Results

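The genes described here are the human collagen genes and the lysyl hydroxylase genes. They were chosen by symbol as the protein-coding genes named COL, a number, A and a number, with nothing after, together with PLOD1, PLOD2 and PLOD3. The rule gave 47 genes, 44 collagen genes and 3 lysyl hydroxylase genes, of 62700 gene identifiers (20046 of them protein-coding) that stood in both count tables. The 44 collagen genes fall into 11 fibrillar, 9 network, 10 FACIT and 14 other collagens, where FACIT stands for fibril-associated collagens with interrupted triple helices.

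RNA was sequenced from 15 libraries of 143B, an established human osteosarcoma cell line, with 3 libraries in each of 5 conditions. Non-OSCs were 143B cells grown attached, and OSCs (osteosarcoma stem cells, the study's name for them) were 143B cells grown in tumorsphere medium, both unmodified. The study kept its osteosarcoma lines in DMEM with fetal bovine serum. Its tumorsphere medium was DMEM/F12 with B27, EGF and basic FGF, with no serum listed. Culture form and medium thus differed together, and their effects cannot be told apart. The other conditions were OSCs infected with a lentivirus that carried a control hairpin (shCtrl) or 1 of 2 hairpins against PDK1 (shPDK1#1 and shPDK1#2), the kinase that inhibits the pyruvate dehydrogenase complex. All libraries thus came from 1 cell line, and whether the 3 libraries of a condition came from separate cultures is not given in the sources used here, so the p-values measure the spread between these libraries, which may be technical. The OSC and non-OSC libraries formed 1 count table and the hairpin libraries another, and levels were not compared between the tables. The columns of the first table are named 2D and 3D, which were read as attached and sphere culture, since the labels do not use these names, and the direction of every OSC comparison rests on that reading.

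Collagens are secreted as trimers of chains that wind into a triple helix, in which glycine recurs at a fixed spacing. Prolyl and lysyl hydroxylases modify the chains in the endoplasmic reticulum before the helix closes, chaperones hold the helix, proteases trim its ends, and lysyl oxidase then links lysines and hydroxylysines of neighbouring molecules outside the cell. Fibrillar collagens form the cables of bone, skin and tendon, network collagens form sheets such as the basement membrane, and FACIT collagens sit on the surface of fibrils. Bone matrix is mostly type I collagen, a trimer of COL1A1 and COL1A2 chains, and osteosarcoma cells are known for making matrix of this kind.

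The library totals ran from 7992534 to 11256578 expected counts, and every level below is given in CPM, read counts scaled to the normalised library size. PDK1, the target of the hairpins, was lower with shPDK1#1 (28.9, 27.8 and 27.3 CPM) and with shPDK1#2 (18.2, 21.5 and 19.5 CPM) than with shCtrl (46.6, 44.6 and 44.3 CPM), with log2 fold changes of -0.69 ± 0.083 and -1.19 ± 0.086 (SE; adjusted p = 7.04e-06 and 5.68e-11). PDK1 was higher in OSCs than in non-OSCs (log2 fold change 0.59 ± 0.079). Of the 7 markers of the osteoblast lineage, IBSP and SP7 were at or below 3 counts in every library, and BGLAP was so in non-OSCs. SPP1 made up most of the summed level, which ran from 172 to 182 CPM in non-OSCs and from 557 to 571 CPM in OSCs. The sum ran from 1430 to 1540 CPM under shCtrl and from 1560 to 1640 CPM under shPDK1#1, and was 2430 CPM under shPDK1#2. RUNX2 went the other way, with means of 37.7 CPM in non-OSCs and 17.3 CPM in OSCs. Of the 4 markers tested, 1 was higher and 1 was lower in OSCs, beside 32.4% and 31.5% of all genes tested. With shPDK1#2, 1 was higher and 0 were lower, beside 11.9% and 14.2%. The epithelial, the endothelial and the blood cell markers, each list summed on its own, came to at most 4.54 CPM in any library. The chondrocyte markers summed to between 274 and 361 CPM in all 15 libraries, and nearly all of this was SOX9. The means of SOX9 were 272 CPM in non-OSCs and 312 CPM in OSCs, and ran from 321 CPM with shCtrl to 342 CPM with shPDK1#1. Of the 3 chondrocyte markers tested, 1 was higher and 0 were lower in OSCs, beside 32.4% and 31.5% of all genes tested. With shPDK1#2, 0 were higher and 1 was lower, beside 11.9% and 14.2%. In any library, ACAN was at most 5.705 CPM, MATN3 at most 2.706 CPM and CNMD at most 0.745 CPM.

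Sphere culture was compared with attached culture first. Most collagen genes that could be tested were higher in OSCs, across all 4 collagen classes, and so were all 3 lysyl hydroxylase genes. Of the 47 genes, 31 had enough counts to be tested. The quasi-likelihood test of edgeR was used, with Benjamini-Hochberg adjustment across all 14288 genes tested, and a gene was called at an adjusted p under 0.05. Of the 31 genes, 23 were higher and 2 were lower in OSCs, whereas 32.4% of all genes tested were higher and 31.5% were lower. The median log2 fold change was 1.07 over the 31 genes and -0.01 over all genes tested. By class, 4 of 7 tested fibrillar collagens, 5 of 7 network collagens, 4 of 5 FACIT collagens and 7 of 9 other collagens were higher, and 1 FACIT and 1 other collagen were lower. Together the 44 collagen genes took 0.645% ± 0.0241 (SD, n = 3) of the counts in non-OSCs and 1.55% ± 0.0467 in OSCs. Beside this, 7 fibroblast markers summed to between 272 and 279 CPM in non-OSCs and between 585 and 591 CPM in OSCs. Most of the sum was PDGFRA (means of 177 CPM in non-OSCs and 377 CPM in OSCs) and FBLN1 (87.5 and 204 CPM). FAP (7.11 and 4.14 CPM), PDGFRB and POSTN had lower means in OSCs. DCN was at or below 3 counts in every non-OSC library, and POSTN was so in every OSC library. Of the 4 fibroblast markers that were tested, 2 were higher and 1 was lower in OSCs, and their part in the collagen results was not tested. In RNA from whole cultures, fewer cells of a kind and less RNA per cell cannot be told apart.

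**Figure D1:**
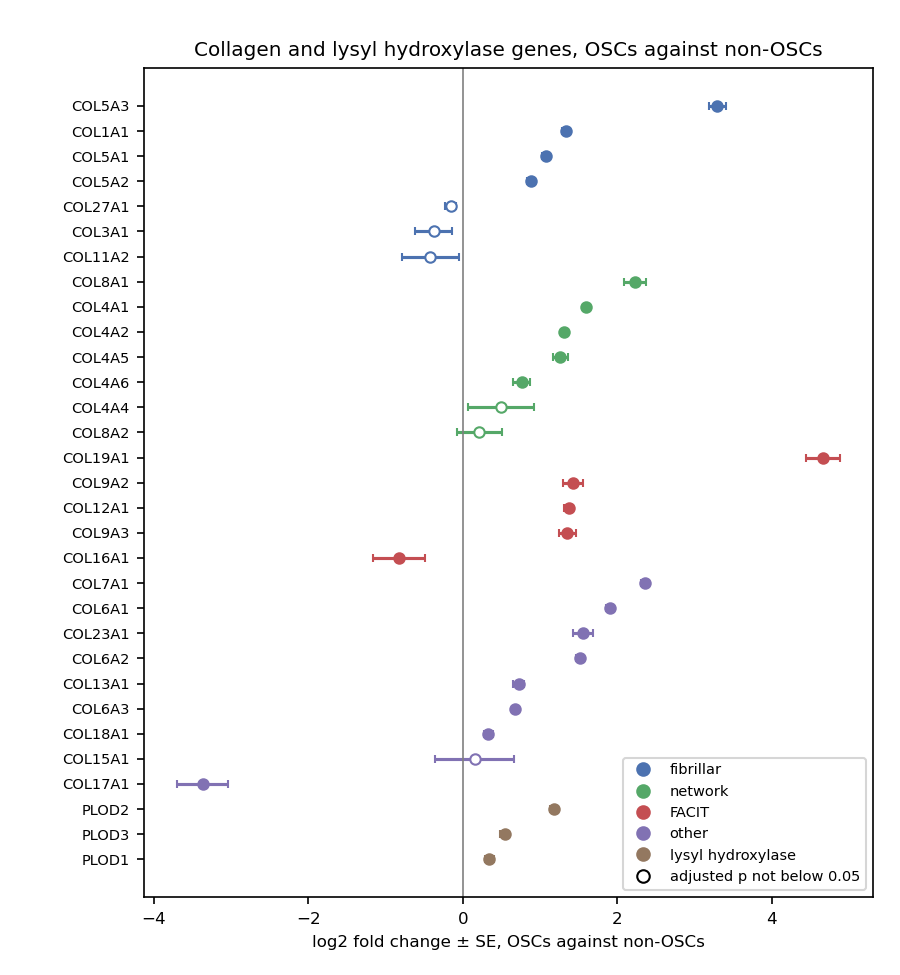
Log2 fold change of OSCs against non-OSCs (x axis, with its SE as a bar, from 3 libraries a condition) for the 31 collagen and lysyl hydroxylase genes tested (rows, coloured by class). Filled points have an adjusted p under 0.05, 23 of them right of 0 and 2 left of it (COL16A1 and COL17A1), and COL19A1 and COL17A1 stand at the ends.

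Among the fibrillar collagens, COL1A1, the main chain of bone collagen (chr17:50184101-50201632, GRCh38), was 389, 408 and 450.3 CPM in the 3 non-OSC libraries and 986, 1066 and 1109 CPM in the 3 OSC libraries. All OSC values lay above all non-OSC values, and the log2 fold change was 1.34 ± 0.051 (SE; adjusted p = 1.72e-15). COL1A2, which codes for the partner chain of type I collagen, was almost absent in either culture, with 10, 7 and 9 counts in the non-OSC libraries and 1, 0 and 0 in the OSC libraries. It was too low to be tested.

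The 3 chains of type V collagen, a minor fibrillar collagen that joins type I fibrils and limits their width, were all higher in OSCs. COL5A3 (chr19:9959561-10010504) was 6.06, 6.88 and 5.50 CPM in non-OSCs and 56.8, 62.1 and 61.7 CPM in OSCs, a log2 fold change of 3.29 ± 0.11 (SE; adjusted p = 2.06e-16). COL5A1 was 207, 225 and 224 CPM in non-OSCs and 441, 469.8 and 467 CPM in OSCs, a log2 fold change of 1.07 ± 0.047 (adjusted p = 2.03e-14). COL5A2 was 118, 111 and 109 CPM in non-OSCs and 202, 211 and 209 CPM in OSCs, a log2 fold change of 0.88 ± 0.053 (adjusted p = 4.17e-12). The OSC and non-OSC libraries did not overlap for any of these chains, and the scarce COL5A3 chain had the largest fold change of the fibrillar genes tested. COL3A1, whose chain forms type III collagen of elastic tissues, was 5.87, 5.90 and 4.40 CPM in non-OSCs and 3.44, 5.35 and 3.50 CPM in OSCs, which overlapped and did not pass the test (adjusted p = 0.177). COL27A1 (adjusted p = 0.0509) and COL11A2 (adjusted p = 0.328), both collagens of cartilage, did not pass it either, with log2 fold changes of -0.16 and -0.42.

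Type IV collagen is the sheet-forming collagen of basement membranes, and its genes lie in head-to-head pairs that share a start region. COL4A1 and COL4A2, whose chains form the most widespread type IV trimer, start 126 bases apart on opposite strands of chromosome 13 in RefSeq. COL4A5 and COL4A6, whose chains form a rarer type IV trimer, lie the same way on the X chromosome, with 379 bases between the start of COL4A5 and the nearer RefSeq start of COL4A6. Another such pair, COL4A3 and COL4A4 on chromosome 2, has 418 bases between its starts. Sequence from the start regions of the first 2 pairs is printed because the genes of each changed in the same direction here and in the hairpin comparisons, whereas COL4A4 was called in no comparison and COL4A3, with 0 to 3 counts a library, was not tested. Capitals mark the CCAAT box (CCAAT, or ATTGG on the other strand) and the GC box (GGGCGG, or CCGCCC on the other strand), and each is read 5′ to 3′ on the plus strand of GRCh38.p14.
COL4A1-COL4A2, part of the interval, chr13:110307158-110307257: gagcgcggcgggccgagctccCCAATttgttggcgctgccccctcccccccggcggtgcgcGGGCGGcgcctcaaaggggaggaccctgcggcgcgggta
COL4A5 upstream, chrX:108439588-108439837: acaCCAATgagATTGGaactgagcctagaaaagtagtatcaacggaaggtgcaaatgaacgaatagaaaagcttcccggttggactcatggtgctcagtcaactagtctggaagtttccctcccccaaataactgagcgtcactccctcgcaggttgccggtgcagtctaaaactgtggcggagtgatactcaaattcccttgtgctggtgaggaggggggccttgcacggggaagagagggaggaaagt
The printed 100 bases, which are part of the 126 between the COL4A1 and COL4A2 starts, hold 1 CCAAT box and 1 GC box, and the 250 bases before the COL4A5 start hold 2 CCAAT boxes and 0 GC boxes. Of 35116 RefSeq promoter windows, 18.1% hold a CCAAT box and 31.3% a GC box in the 100 bases before the start, and 32% and 42.6% hold them in 250 bases. Both motifs are common in promoters, and a match is a description of the letters only.

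Of the 3 pairs of type IV genes, those on chromosome 13 and on the X chromosome were higher in OSCs. COL4A1 was 256, 264 and 259 CPM in non-OSCs and 769, 789.7 and 788 CPM in OSCs, a log2 fold change of 1.59 ± 0.041 (SE; adjusted p = 2.17e-18). COL4A2 was 431, 467 and 464 CPM in non-OSCs and 1049, 1170 and 1153 CPM in OSCs, a log2 fold change of 1.31 ± 0.046 (adjusted p = 4.69e-16). These are the abundant pair, and no OSC library overlapped a non-OSC library. The scarcer pair was higher as well. COL4A5 was 26.0, 24.5 and 20.7 CPM in non-OSCs and 61.6, 55.8 and 52.9 CPM in OSCs, a log2 fold change of 1.26 ± 0.096 (adjusted p = 1.95e-10). COL4A6 was 14.6, 15.2 and 13.8 CPM in non-OSCs and 25.2, 23.1 and 25.8 CPM in OSCs, a log2 fold change of 0.76 ± 0.11 (adjusted p = 3.58e-06). Both groups were apart for these genes too. COL8A1, which codes for a chain of the type VIII lattice of blood vessels and the cornea, was 5.97, 4.37 and 5.83 CPM in non-OSCs and 25.1, 24.7 and 26.3 CPM in OSCs, a log2 fold change of 2.23 ± 0.14 (adjusted p = 8.97e-12). Its partner COL8A2 did not pass the test, with a log2 fold change of 0.21 ± 0.29 (adjusted p = 0.541), and neither did COL4A4 (log2 fold change 0.49, adjusted p = 0.336).

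Of the FACIT collagens, COL19A1 had the largest fold change of all 31 genes. COL19A1 (chr6:69866556-70212468), a minor collagen known from muscle and nerve, was 0.77, 0.546 and 1.65 CPM in non-OSCs and 24.6, 24.1 and 26.5 CPM in OSCs, a log2 fold change of 4.66 ± 0.22 (SE; adjusted p = 6.39e-14). It thus went from 5 to 15 counts a library in non-OSCs to 200 to 239 in OSCs. COL12A1, the FACIT collagen of tendon and bone surfaces, was 74.6, 64.9 and 69.4 CPM in non-OSCs and 181, 183 and 176 CPM in OSCs, a log2 fold change of 1.37 ± 0.06 (adjusted p = 1.82e-14). COL9A2 and COL9A3 code for chains of type IX collagen, which coats the fibrils of cartilage. COL9A2 was 9.14, 12.1 and 8.58 CPM in non-OSCs and 24.6, 26.8 and 28.2 CPM in OSCs, a log2 fold change of 1.42 ± 0.13 (adjusted p = 5.13e-09). COL9A3 was 15.5, 19.99 and 20.2 CPM in non-OSCs and 50.1, 43.7 and 48.0 CPM in OSCs, a log2 fold change of 1.35 ± 0.11 (adjusted p = 2.7e-10). The partner gene COL9A1 had at most 1 count in any of the 15 libraries. COL16A1 was the FACIT collagen that was lower, at 2.31, 2.84 and 3.41 CPM in non-OSCs and 1.48, 1.72 and 1.57 CPM in OSCs (log2 fold change -0.83 ± 0.34, adjusted p = 0.0355). That call rested on 12 to 31 counts a library and was lost without non-OSC replicate 2 or 3 (adjusted p = 0.0745 and 0.155), without OSC replicate 1, 2 or 3 (0.0944, 0.0645 and 0.083), in DESeq2 (0.155) and with no filter on low counts (0.0635).

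The type VI collagens, which form beaded filaments around cells, include the most abundant collagen genes of these cells, COL6A1, COL6A2 and COL6A3, which were all higher in OSCs, and COL6A5 and COL6A6, which had 0 to 3 counts a library and were not tested. COL6A1 was 618, 687 and 661 CPM in non-OSCs and 2335, 2485 and 2507 CPM in OSCs, a log2 fold change of 1.90 ± 0.042 (SE; adjusted p = 1.79e-19). COL6A2 was 1082, 1278 and 1212 CPM in non-OSCs and 3195, 3428 and 3559 CPM in OSCs, a log2 fold change of 1.51 ± 0.049 (adjusted p = 1.2e-16). COL6A3 was 2428, 2476 and 2489 CPM in non-OSCs and 3904, 3869 and 4012 CPM in OSCs, a log2 fold change of 0.67 ± 0.031 (adjusted p = 4.13e-14). The groups were apart for each of these. Together these chains took 0.426% ± 0.0158 (SD, n = 3) of the counts in non-OSCs and 0.989% ± 0.027 in OSCs.

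COL7A1 (chr3:48564073-48595329), whose product forms the anchoring fibrils below the epidermis, was 183, 201 and 212 CPM in non-OSCs and 960.5, 1044 and 1044 CPM in OSCs, a log2 fold change of 2.36 ± 0.052 (SE; adjusted p = 1.66e-19). No library of one culture reached those of the other. The collagens that span the cell membrane went both ways. COL23A1 was 7.89, 9.502 and 8.36 CPM in non-OSCs and 24.2, 27.8 and 23.5 CPM in OSCs, a log2 fold change of 1.56 ± 0.13 (adjusted p = 7.75e-10). COL13A1, known from the neuromuscular junction, was 52.4, 52.6 and 55.6 CPM in non-OSCs and 77.4, 93.9 and 92.1 CPM in OSCs, a log2 fold change of 0.72 ± 0.077 (adjusted p = 4.18e-08). COL17A1 (chr10:104031286-104085880), the collagen of epithelial hemidesmosomes, was 6.25, 6.66 and 5.17 CPM in non-OSCs and 0.492, 0.606 and 0.603 CPM in OSCs, a log2 fold change of -3.37 ± 0.33 (adjusted p = 1.26e-08). It was thus higher in every non-OSC library, from 47 to 65 counts against 4 to 6 in OSCs, while the epithelial markers CDH1 and KRT5 were at or below 3 counts in every library of both cultures and the 3 epithelial markers summed to between 2.29 and 4.23 CPM. COL18A1, the source of endostatin, was 197, 239.5 and 227 CPM in non-OSCs and 261, 285 and 288 CPM in OSCs, a log2 fold change of 0.33 ± 0.061 (adjusted p = 6.63e-05). Its exons share 18.5% of their bases with SLC19A1, which runs the other way, and without strand in the counting the reads of these genes cannot be told apart there. The other basement membrane zone collagen of its kind, COL15A1, did not pass the test (log2 fold change 0.15 ± 0.51, adjusted p = 0.811).

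The lysyl hydroxylases were higher in OSCs as well. PLOD2 (chr3:146035139-146163725), which hydroxylates lysines in the chain ends that later take part in cross-links, was 90.7, 83.5 and 81.8 CPM in non-OSCs and 195, 193 and 191 CPM in OSCs, a log2 fold change of 1.18 ± 0.056 (SE; adjusted p = 7.11e-14). PLOD3 (chr7:101205977-101218420), which also attaches sugars to hydroxylysine, was 85.7, 89.8 and 86.1 CPM in non-OSCs and 125, 126 and 128 CPM in OSCs, a log2 fold change of 0.54 ± 0.057 (adjusted p = 3.86e-08). PLOD1 (chr1:11934205-11975538), which acts on lysines of the helix, was 136, 150 and 143 CPM in non-OSCs and 176, 175 and 191 CPM in OSCs, a log2 fold change of 0.34 ± 0.056 (adjusted p = 1.81e-05). For each of these genes the lowest OSC library lay above the highest non-OSC library. Per kilobase of transcript, PLOD1 was the highest of them in non-OSCs (48.0 ± 2.43 CPM per kb, mean ± SD, n = 3), above PLOD3 (30.9 ± 0.797) and PLOD2 (22.8 ± 1.25). In OSCs the order was PLOD1 (60.7 ± 3.05 CPM per kb), PLOD2 (51.5 ± 0.555) and PLOD3 (44.8 ± 0.491).

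**Figure D2:**
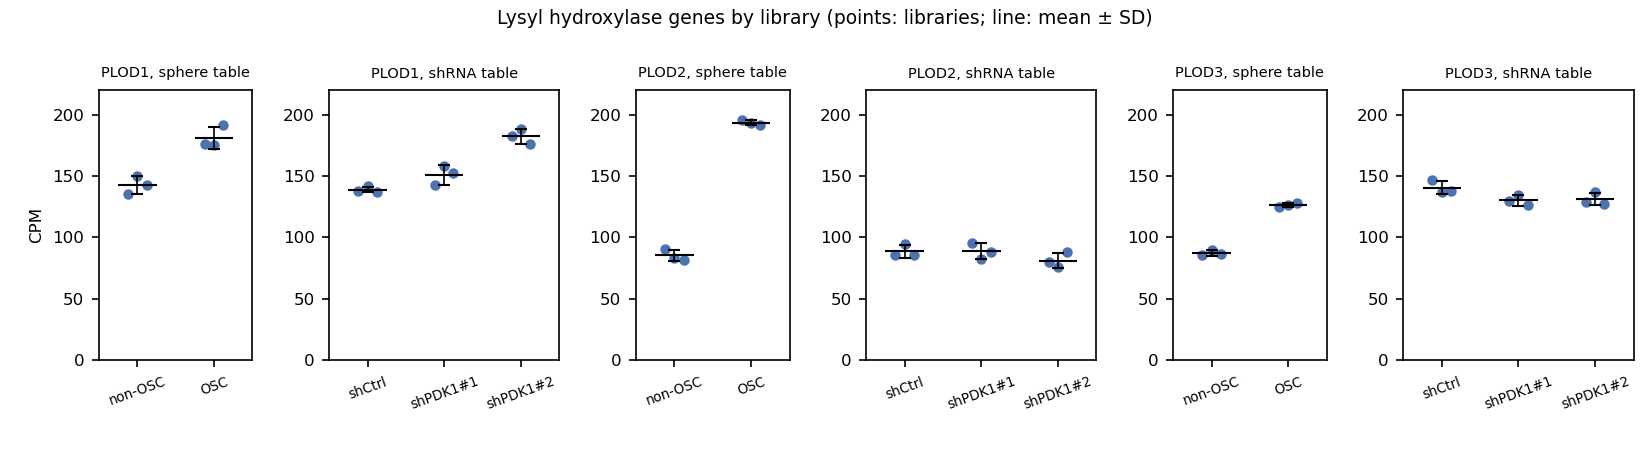
CPM of PLOD1, PLOD2 and PLOD3 (y axis) in each library (points), with the mean and SD of each condition (lines, n = 3), and with the 2 count tables in separate panels. PLOD2 lies between 81.8 and 90.7 CPM in non-OSCs and between 191 and 195 CPM in OSCs, and the 3 hairpin conditions overlap for PLOD2.

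Around these genes, the other genes of collagen processing did not share 1 direction. A list of 32 genes held prolyl hydroxylases, chaperones, export factors and other genes grouped with these, and propeptide proteases, lysyl oxidases and SPARC. Of the 32, 28 were tested, and 13 were higher and 8 were lower in OSCs, beside 32.4% and 31.5% of all genes tested. Their median log2 fold change was 0.26. LOX, the lysyl oxidase that forms cross-links, was 32.9, 34.8 and 29.9 CPM in non-OSCs and 573, 571 and 569 CPM in OSCs, a log2 fold change of 4.13 ± 0.058 (SE; adjusted p = 1.27e-22). P4HA2, a catalytic subunit of prolyl 4-hydroxylase, was 27.2, 29.4 and 33.2 CPM in non-OSCs and 148, 147 and 141 CPM in OSCs, a log2 fold change of 2.28 ± 0.073 (adjusted p = 9.76e-17). P4HA1, the other main catalytic subunit, was 44.4, 36.7 and 38.1 CPM in non-OSCs and 118, 116 and 114 CPM in OSCs, a log2 fold change of 1.54 ± 0.073 (adjusted p = 6.65e-14). For LOX, P4HA1 and P4HA2, every OSC library lay above every non-OSC library. P3H2, a prolyl 3-hydroxylase, was lower, at 20.02, 15.8 and 21.6 CPM in non-OSCs and 9.22, 8.98 and 8.20 CPM in OSCs (log2 fold change -1.12 ± 0.14, adjusted p = 6.84e-07). SERPINH1, the chaperone that binds the closed helix, was 166, 185 and 189.6 CPM in non-OSCs and 176, 199 and 197 CPM in OSCs, which overlapped (log2 fold change 0.08 ± 0.06, adjusted p = 0.238). Of the genes grouped in the list as folding and export, not all of which are chaperones or exporters, 1 of 8 was higher (FKBP10, log2 fold change 0.39). In this group 4 were lower (COLGALT1, COLGALT2, CREB3L1 and TMEM38B, from -0.99 to -0.16).

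The hairpins were then compared with shCtrl within OSCs, to see how the same genes stood when PDK1 was lower. COL3A1 was higher and COL7A1 was lower with each hairpin, and the type IV genes COL4A1, COL4A2, COL4A5 and COL4A6 were higher with each. These genes differed further with shPDK1#2 than with shPDK1#1, although for COL4A2 that difference, and the call with shPDK1#1, were lost in some alternatives. In the table of the hairpins 33 of the 47 genes were tested, in 1 fit over 9 libraries and 14597 genes. With shPDK1#1, 8 were higher and 1 was lower, whereas 1.62% of all genes tested were higher and 1.44% were lower. With shPDK1#2, 13 were higher and 5 were lower, beside 11.9% and 14.2% of all genes tested. The median log2 fold change over the 33 genes was 0.11 with shPDK1#1 and 0.16 with shPDK1#2, and over all genes tested it was 0.00 and 0.01. The share of counts taken by the 44 collagen genes was 1.29% ± 0.0226 (SD, n = 3) with shCtrl, 1.36% ± 0.053 with shPDK1#1 and 1.31% ± 0.0364 with shPDK1#2. Both hairpins were compared with the same shCtrl libraries, so that their values below are set side by side and are not independent of each other.

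**Figure D3:**
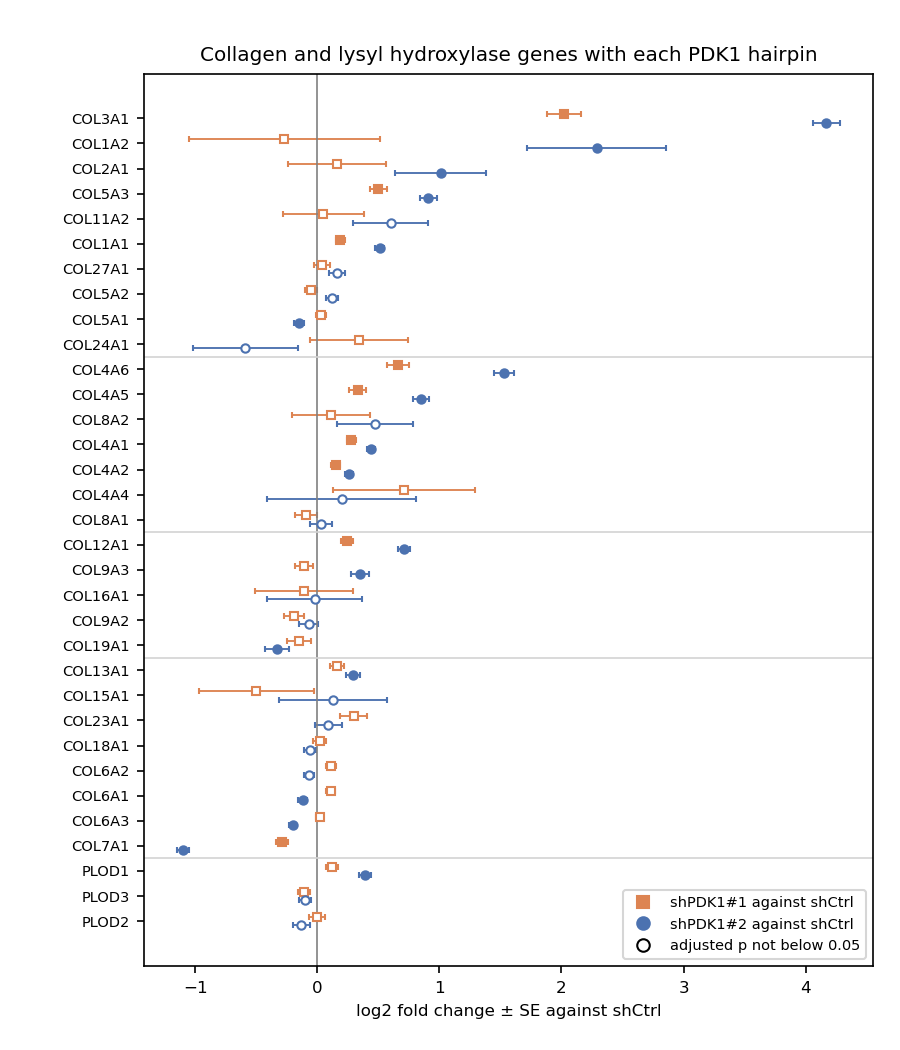
Log2 fold change against shCtrl (x axis, with its SE as a bar, from 1 fit over 9 libraries) for the 33 collagen and lysyl hydroxylase genes tested (rows, with grey lines between the classes), for shPDK1#1 (squares) and shPDK1#2 (circles). Filled symbols have an adjusted p under 0.05, and COL3A1 lies farthest to the right with both hairpins while COL7A1 is the filled symbol farthest to the left.

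COL3A1 (chr2:188974373-189012746), the gene of type III collagen, had the largest fold change of the 33 genes. It had 42, 41 and 47 counts in the shCtrl libraries, 139, 189 and 234 with shPDK1#1 and 971, 817 and 828 with shPDK1#2, that is 4.596, 4.11 and 5.83 CPM, 17.3, 19.8 and 20.9 CPM and 90.2, 82.5 and 86.1 CPM. The 3 conditions were apart, with log2 fold changes of 2.02 ± 0.14 with shPDK1#1 and 4.17 ± 0.11 with shPDK1#2 (SE; adjusted p = 1.64e-10 and 1.95e-19). Its neighbour COL5A2, whose gene ends 19.2 kb away on the opposite strand, was 200.2, 209.5 and 226 CPM under shCtrl, 202, 203 and 206 CPM under shPDK1#1 and 228, 225 and 238 CPM under shPDK1#2. The hairpin libraries of COL5A2 overlapped those of shCtrl, and neither comparison passed the test (adjusted p = 0.664 and 0.0506). With shPDK1#2, COL5A2 lay at the threshold, and its adjusted p was from 0.0163 to 0.048 in 7 of the alternatives tried.

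COL1A2 was higher with shPDK1#2, from 4, 3 and 1 counts with shCtrl and 1, 2 and 4 with shPDK1#1 to 16, 13 and 16, a log2 fold change of 2.29 ± 0.57 (SE; adjusted p = 0.00357), and it did not pass the test with shPDK1#1 (adjusted p = 0.928). Even with shPDK1#2 this gene stayed below 2 CPM, far under COL1A1. COL1A1 was 919.6, 897 and 915 CPM under shCtrl, 1005, 1095 and 1012 CPM under shPDK1#1 and 1276, 1385 and 1240 CPM under shPDK1#2. The libraries of the 3 conditions did not overlap, and the log2 fold changes were 0.19 ± 0.04 and 0.51 ± 0.04 (adjusted p = 0.00604 and 1.89e-10). COL5A3 was 49.1, 51.1 and 46.4 CPM under shCtrl, 65.2, 71.7 and 70.3 CPM under shPDK1#1 and 85.3, 94.4 and 95.6 CPM under shPDK1#2, again without overlap (log2 fold changes 0.50 ± 0.069 and 0.91 ± 0.067, adjusted p = 5.22e-05 and 8.34e-11). COL5A1 was 362, 346 and 361 CPM under shCtrl, 355, 373 and 361 CPM under shPDK1#1 and 309.8, 339.9 and 317 CPM under shPDK1#2, and passed the test as lower with shPDK1#2 (log2 fold change -0.15 ± 0.042, adjusted p = 0.0101) but not with shPDK1#1 (0.853). Without shPDK1#2 replicate 1 the adjusted p of COL5A1 was 0.0766. COL2A1, the cartilage collagen, had 11, 16 and 7 counts with shCtrl and 23, 31 and 22 with shPDK1#2 (log2 fold change 1.01 ± 0.37, adjusted p = 0.0465), a call lost without any 1 of the 9 libraries (adjusted p from 0.0501 to 0.19), in DESeq2 (0.0762), with no filter (0.0754) and without TMM factors.

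Some markers of the fibroblast list moved beside COL3A1 and COL1A2, and others did not. Of 7 fibroblast markers 6 were tested. With shPDK1#1, 2 were higher and 1 was lower, beside 1.62% and 1.44% of all genes tested. With shPDK1#2, 3 were higher and 1 was lower, beside 11.9% and 14.2%. POSTN, the matrix protein periostin, had 3, 0 and 3 counts with shCtrl, 18, 22 and 19 with shPDK1#1 and 73, 54 and 75 with shPDK1#2, and passed the test with both (adjusted p = 0.000683 and 5.59e-09). PDGFRB was 3.17, 2.21 and 2.85 CPM under shCtrl, 5.96, 4.70 and 4.55 CPM under shPDK1#1 and 14.8, 14.2 and 12.7 CPM under shPDK1#2 (log2 fold changes 0.88 ± 0.22 and 2.34 ± 0.19, adjusted p = 0.0219 and 5.77e-10). LUM was higher with shPDK1#2 (log2 fold change 2.15 ± 0.52, adjusted p = 0.00302), FBLN1 was lower with both (log2 fold changes -0.21 and -0.19), PDGFRA and FAP did not pass the test, and DCN was at or below 3 counts in every shPDK1#2 library. The summed level of the 7 markers was 450 to 469 CPM under shCtrl, 452 to 469 CPM under shPDK1#1 and 427 to 444 CPM under shPDK1#2. The part of these genes in the collagen results was not tested. Nor was that of the osteoblast lineage sum, mostly SPP1, which was higher under shPDK1#2.

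Both genes of the type IV pairs on chromosome 13 and on the X chromosome were higher with each hairpin, and in the pair on chromosome 2 COL4A4 passed the test with neither (adjusted p = 0.642 and 0.851) and COL4A3 was not tested. COL4A6 (chrX:108155607-108439497) was 24.4, 23.9 and 24.9 CPM under shCtrl, 40.9, 41.3 and 33.6 CPM under shPDK1#1 and 70.5, 71.7 and 68.8 CPM under shPDK1#2, with log2 fold changes of 0.66 ± 0.088 and 1.53 ± 0.083 (SE; adjusted p = 3.87e-05 and 1.93e-13). COL4A5 (chrX:108439838-108697545) was 43.8, 43.1 and 44.9 CPM under shCtrl, 55.1, 57.2 and 53.1 CPM under shPDK1#1 and 78.8, 75.9 and 83.0 CPM under shPDK1#2, with log2 fold changes of 0.33 ± 0.068 and 0.85 ± 0.066 (adjusted p = 0.00553 and 1.91e-10). For this pair, of which the bases before the COL4A5 start are printed above, no condition overlapped another. The abundant pair on chromosome 13 moved less. COL4A1 was 1012, 962 and 947 CPM under shCtrl, 1185, 1204 and 1160 CPM under shPDK1#1 and 1320, 1358 and 1298 CPM under shPDK1#2, with log2 fold changes of 0.28 ± 0.034 and 0.44 ± 0.034 (adjusted p = 7.04e-06 and 1.38e-10). COL4A2 was 1332, 1273 and 1275 CPM under shCtrl, 1396, 1510 and 1411 CPM under shPDK1#1 and 1504, 1614 and 1534 CPM under shPDK1#2, with log2 fold changes of 0.15 ± 0.036 and 0.26 ± 0.036 (adjusted p = 0.013 and 2.89e-06). Every hairpin library lay above every shCtrl library for both, but the COL4A2 call with shPDK1#1 was lost without shCtrl replicate 2 or 3 (adjusted p = 0.0899 and 0.0686). COL8A1 was 29.1 to 34.9 CPM under shCtrl, 27.4 to 31.0 CPM under shPDK1#1 and 30.2 to 33.4 CPM under shPDK1#2, and passed the test with neither (adjusted p = 0.71 and 0.831).

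COL12A1 was the FACIT collagen that was higher with both hairpins, at 227, 209 and 206 CPM under shCtrl, 246, 243 and 270.3 CPM under shPDK1#1 and 365, 347 and 337 CPM under shPDK1#2. Its log2 fold changes were 0.24 ± 0.049 and 0.71 ± 0.048 (SE; adjusted p = 0.00376 and 1.7e-11), and no condition overlapped another, although without shPDK1#1 replicate 3 the adjusted p with shPDK1#1 was 0.0687. COL9A3 was 51.0, 51.2 and 56.2 CPM under shCtrl, 48.9, 51.7 and 46.5 CPM under shPDK1#1 and 66.2, 71.95 and 63.8 CPM under shPDK1#2, and was higher with shPDK1#2 (log2 fold change 0.35 ± 0.07, adjusted p = 0.000386) but did not pass the test with shPDK1#1 (0.568). COL19A1 was 28.9, 24.9 and 30.0 CPM under shCtrl, 26.8, 23.2 and 25.7 CPM under shPDK1#1 and 23.1, 22.7 and 20.9 CPM under shPDK1#2, and was lower with shPDK1#2 (log2 fold change -0.33 ± 0.098, adjusted p = 0.0144). That call was lost without shCtrl replicate 1 or 3 or shPDK1#2 replicate 3 (adjusted p = 0.0601, 0.0782 and 0.068). COL9A2 and COL16A1 passed the test with neither hairpin, with log2 fold changes of -0.19 and -0.07 for COL9A2 and of -0.11 and -0.02 for COL16A1.

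COL7A1 was the collagen gene that was lower with both hairpins. It was 491, 496 and 470.3 CPM under shCtrl, 368, 430.0 and 397 CPM under shPDK1#1 and 219, 235 and 228 CPM under shPDK1#2, so that no condition overlapped another. The log2 fold changes were -0.29 ± 0.046 and -1.10 ± 0.048 (SE; adjusted p = 0.000387 and 5.07e-15). The type VI genes moved by small amounts. COL6A3 was 3916, 3852 and 3894 CPM under shCtrl, 3883, 4016 and 3904 CPM under shPDK1#1 and 3351, 3501 and 3288 CPM under shPDK1#2, and was lower with shPDK1#2 (log2 fold change -0.20 ± 0.029, adjusted p = 6.3e-06). COL6A1 was 1631, 1553 and 1589 CPM under shCtrl, 1673, 1814 and 1669 CPM under shPDK1#1 and 1400, 1511 and 1485 CPM under shPDK1#2, also lower with shPDK1#2 (log2 fold change -0.12 ± 0.036, adjusted p = 0.0164), a call lost without shCtrl replicate 1 or shPDK1#2 replicate 1 (adjusted p = 0.0809 and 0.127). COL6A2 was 2243, 2161 and 2158 CPM under shCtrl, 2265, 2566 and 2235 CPM under shPDK1#1 and 1998, 2171 and 2101 CPM under shPDK1#2, which overlapped, and did not pass the test with either (adjusted p = 0.194 and 0.26). None of the 3 type VI genes passed the test with shPDK1#1, although COL6A1 was above every shCtrl library there, and the share of counts taken by these genes was 0.771% ± 0.012 with shCtrl, 0.799% ± 0.0345 with shPDK1#1 and 0.691% ± 0.0199 with shPDK1#2. COL13A1 was 64.1, 63.8 and 66.0 CPM under shCtrl, 69.7, 72.4 and 74.1 CPM under shPDK1#1 and 77.9, 81.4 and 77.9 CPM under shPDK1#2, and was higher with shPDK1#2 (log2 fold change 0.29 ± 0.059, adjusted p = 0.000488). COL18A1 (adjusted p = 0.919 and 0.491) and COL23A1 (adjusted p = 0.173 and 0.609) passed the test with neither hairpin.

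**Figure D4:**
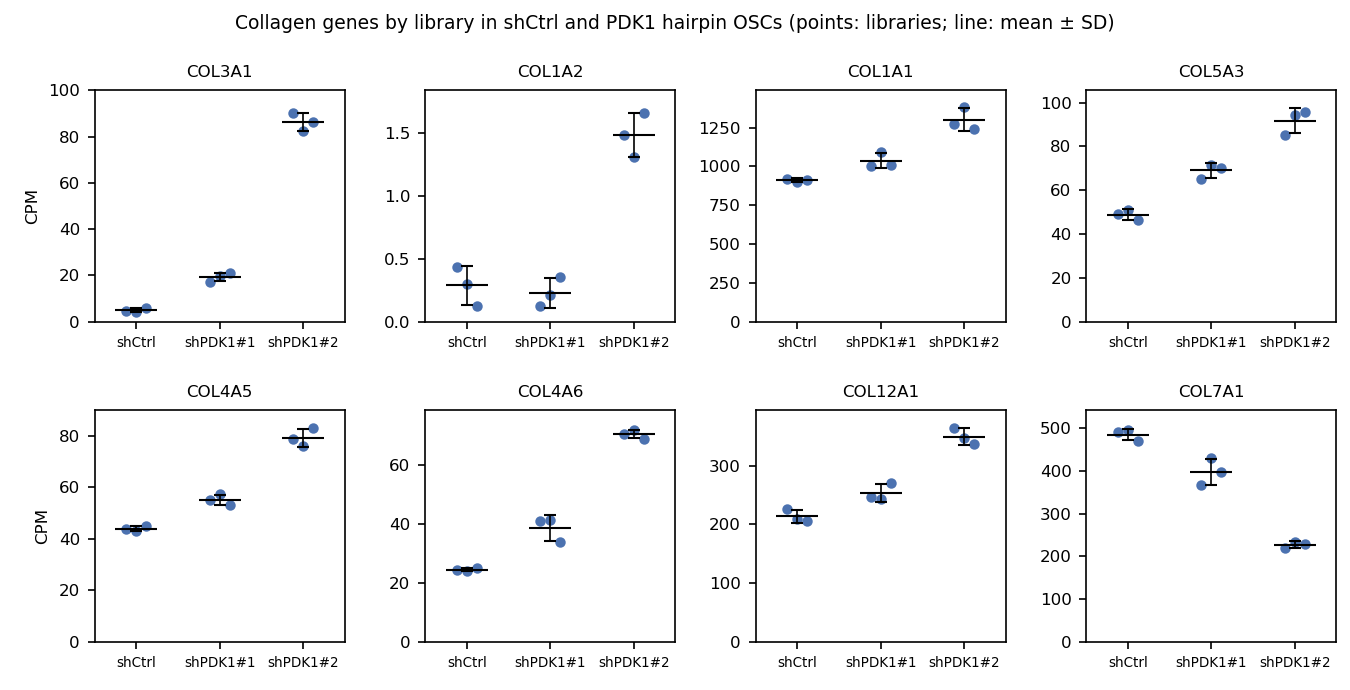
CPM (y axis) of 8 collagen genes in each library (points) of OSCs with shCtrl, shPDK1#1 and shPDK1#2, with the mean and SD of each condition (lines, n = 3). COL7A1 is lower and COL3A1, COL1A1, COL5A3, COL4A5, COL4A6 and COL12A1 are higher in every hairpin library than in any shCtrl library, while COL1A2 stands apart with shPDK1#2 alone.

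Of the lysyl hydroxylases, PLOD1 was 138, 142 and 137 CPM under shCtrl, 142, 158 and 152 CPM under shPDK1#1 and 182, 188 and 176 CPM under shPDK1#2. It was higher with shPDK1#2 (log2 fold change 0.39 ± 0.049 (SE), adjusted p = 7.59e-07) and did not pass the test with shPDK1#1 (0.23). PLOD2 was 85.2, 94.4 and 85.7 CPM under shCtrl, 95.7, 82.3 and 88.3 CPM under shPDK1#1 and 79.7, 75.5 and 87.6 CPM under shPDK1#2, and the conditions overlapped. Its log2 fold changes were 0.00 ± 0.067 and -0.13 ± 0.067 (adjusted p = 0.999 and 0.164). PLOD3 was 147, 137 and 138 CPM under shCtrl, 129, 135 and 126 CPM under shPDK1#1 and 129, 137 and 128 CPM under shPDK1#2, with log2 fold changes of -0.11 ± 0.051 and -0.10 ± 0.051 that did not pass the test (adjusted p = 0.302 and 0.167). Per kilobase, PLOD2 was the lowest of these genes in each hairpin condition, at 23.6 ± 1.38 CPM per kb with shCtrl (mean ± SD, n = 3) beside 46.7 ± 0.8 for PLOD1 and 49.8 ± 1.93 for PLOD3.

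In the list of collagen processing genes, 3 of the 29 tested passed the test with shPDK1#1 (LOX, P4HB and PPIB, all higher), and 13 were higher and 1 was lower with shPDK1#2, beside 1.62% higher and 1.44% lower with shPDK1#1 and 11.9% and 14.2% with shPDK1#2 over all genes tested. The 13 came to 8 without shCtrl replicate 2, and the 1 (BMP1) to 0 without shCtrl replicate 3. Of the genes grouped in the list as prolyl hydroxylation, 4 of 9 tested were higher with shPDK1#2. Of those grouped as folding and export, not all of which are chaperones or exporters, 4 of 8 were. LOX was 122, 134 and 135 CPM under shCtrl, 186, 184 and 185 CPM under shPDK1#1 and 218, 205 and 229 CPM under shPDK1#2, apart in every library (log2 fold changes 0.50 ± 0.051 and 0.74 ± 0.05, adjusted p = 4.33e-07 and 1.8e-11). SERPINH1 was 229.8, 236 and 232 CPM under shCtrl, 253, 278 and 245 CPM under shPDK1#1 and 304, 319 and 301 CPM under shPDK1#2, and was higher with shPDK1#2 (log2 fold change 0.41 ± 0.046, adjusted p = 1.48e-07) but did not pass the test with shPDK1#1 (0.074). P4HA1 was at the threshold with shPDK1#2 (log2 fold change 0.19 ± 0.072, adjusted p = 0.0484), a call lost in 8 alternatives, among them DESeq2 (0.0562), the scaling without TMM factors (0.0681) and the fits without shCtrl replicate 1, 2 or 3 (0.0936, 0.146 and 0.1), shPDK1#1 replicate 3 (0.0565) or shPDK1#2 replicate 1 or 3 (0.116 and 0.247). P4HA2 passed the test with neither (log2 fold changes 0.17 and 0.08), and P3H2 did not pass it either (0.08 and 0.34).

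The hairpins were also compared with each other. With shPDK1#2, the hairpin with the lower PDK1 level, 12 of the 33 genes were higher and 5 were lower than with shPDK1#1, beside 6.47% and 9.78% of all genes tested. COL3A1 was higher with shPDK1#2 than with shPDK1#1 by a log2 fold change of 2.15 ± 0.086 (SE; adjusted p = 2.1e-15), COL1A2 by 2.56 ± 0.58 (adjusted p = 0.00274) and COL4A6 by 0.87 ± 0.077 (adjusted p = 5e-09). COL7A1 was lower with shPDK1#2, by a log2 fold change of -0.81 ± 0.048 (adjusted p = 2.09e-12). The type VI genes COL6A1, COL6A2 and COL6A3 were lower as well (-0.23, -0.17 and -0.22), as was COL5A1 (-0.17). PLOD1 was higher (0.27 ± 0.048, adjusted p = 0.000216), whereas PLOD2 (-0.13) and PLOD3 (0.01) did not pass the test (adjusted p = 0.201 and 0.893). COL13A1, COL19A1 and COL2A1, which passed the test with shPDK1#2 but not with shPDK1#1, did not differ past the threshold between the hairpins (adjusted p = 0.129, 0.237 and 0.118). The COL4A2 difference between the hairpins (log2 fold change 0.11 ± 0.036, adjusted p = 0.0382) was lost without shCtrl replicate 2 (adjusted p = 0.0511), shPDK1#1 replicate 1 or 3 (0.165 and 0.138) or shPDK1#2 replicate 2 or 3 (0.161 and 0.0677), and with only the compared conditions in the fit (0.0502). The COL5A2 difference (log2 fold change 0.18 ± 0.046, adjusted p = 0.0082) was lost without shPDK1#2 replicate 3 (0.0563).

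Set beside the sphere comparison, which used other libraries, the hairpin values went in either direction. Of the 23 genes higher in OSCs, 10 were higher with shPDK1#2 (10 of the 13 genes higher with that hairpin) and 5 were lower (5 of the 5), which is 43.5% and 21.7% of the 23. Over all genes tested in both tables, 4579 were higher in OSCs, of which 6.86% were higher and 30.6% were lower with shPDK1#2. The 10 were COL1A1, COL4A1, COL4A2, COL4A5, COL4A6, COL5A3, COL9A3, COL12A1, COL13A1 and PLOD1, and the 5 were COL5A1, COL6A1, COL6A3, COL7A1 and COL19A1. COL7A1 had a log2 fold change of 2.36 in OSCs and of -1.10 with shPDK1#2. PLOD2 was higher in OSCs by 1.18 and had a log2 fold change of -0.13 with shPDK1#2 that did not pass the test.

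Levels of different genes were compared per kilobase of the canonical transcript. COL6A2 ranked first of the 47 genes in every condition, from 346 ± 29 CPM per kb (mean ± SD, n = 3) in non-OSCs to 985 ± 53.4 in OSCs and 635 ± 14.1 with shCtrl. COL6A1 and COL6A3 came next in every condition. Their spread overlapped with shCtrl, at 379 ± 9.31 for COL6A1 and 369 ± 3.09 for COL6A3, but not in non-OSCs, at 156 ± 8.27 and 234 ± 3.06. COL1A1 was at 70.3 ± 5.27 CPM per kb in non-OSCs and 178 ± 10.6 in OSCs. COL3A1 rose from rank 25 with shCtrl (0.882 ± 0.162 CPM per kb) to rank 17 with shPDK1#2 (15.7 ± 0.711), and COL7A1 went from rank 7 (52.6 ± 1.46) to rank 15 (24.6 ± 0.858).

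The ratio of levels per kilobase between genes of 1 collagen type differed between conditions for some types and stayed close for others. COL6A3 to COL6A1 was 1.5 ± 0.0645 (mean ± SD, n = 3) in non-OSCs and 0.642 ± 0.0232 in OSCs, and was 0.975 ± 0.016 with shCtrl, 0.914 ± 0.0271 with shPDK1#1 and 0.921 ± 0.0359 with shPDK1#2. COL4A1 to COL4A2 was 0.564 ± 0.0187 in non-OSCs and 0.687 ± 0.031 in OSCs, and 0.742 ± 0.00866, 0.811 ± 0.0256 and 0.843 ± 0.0199 with shCtrl, shPDK1#1 and shPDK1#2. Within the other head-to-head pair, COL4A5 to COL4A6 was 1.67 ± 0.146 in non-OSCs and 2.36 ± 0.224 in OSCs, and 1.84 ± 0.00654, 1.47 ± 0.127 and 1.15 ± 0.0756 with shCtrl, shPDK1#1 and shPDK1#2. For this pair the libraries of the 5 conditions did not overlap within either table. COL5A3 to COL5A1 was 0.0382 ± 0.00431 in non-OSCs and 0.178 ± 0.00267 in OSCs, and 0.187 ± 0.0132, 0.259 ± 0.00794 and 0.388 ± 0.0198 in the hairpin conditions in the same order. COL1A2 to COL1A1, whose chains meet in type I collagen, was at most 0.00288 in any library, the highest being in non-OSCs. COL6A1 to COL6A2 was 0.596 ± 0.00729, 0.599 ± 0.0172 and 0.575 ± 0.00435 in the hairpin conditions, with 0.452 ± 0.0146 in non-OSCs and 0.59 ± 0.0113 in OSCs. COL9A3 to COL9A2 was 2.17 ± 0.454 in non-OSCs and 2.05 ± 0.249 in OSCs, with overlapping libraries, and 1.54 ± 0.0639, 1.63 ± 0.0286 and 2.06 ± 0.0336 in the hairpin conditions. Between the types III and I, which form separate trimers, COL3A1 to COL1A1 was 0.00573 ± 0.00101 with shCtrl and 0.0717 ± 0.00662 with shPDK1#2. The ratios are given as a description and were not tested.

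**Figure D5:**
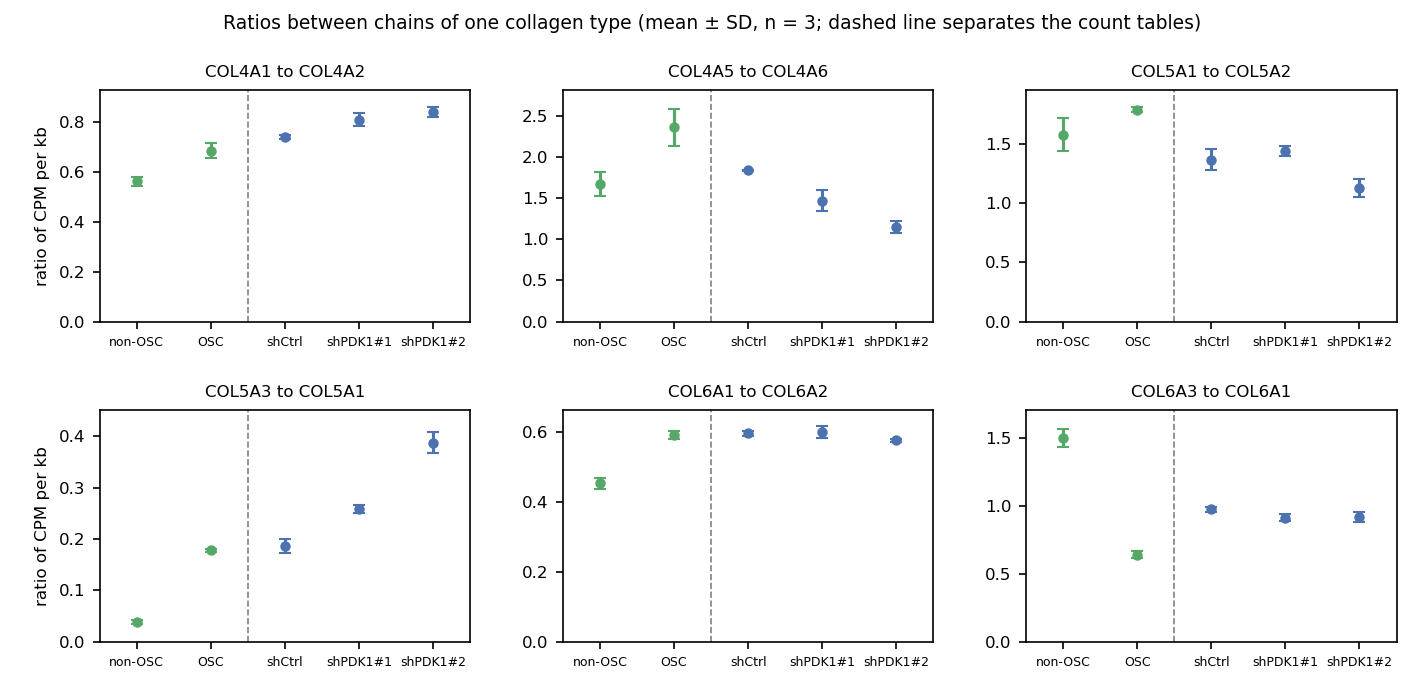
Ratio of CPM per kb between chains of the same collagen type (y axis) in the 5 conditions (x axis), as mean and SD over 3 libraries, with a dashed line between the 2 count tables. COL6A3 to COL6A1 goes from 1.5 in non-OSCs to 0.642 in OSCs, and COL4A5 to COL4A6 goes from 1.84 with shCtrl to 1.15 with shPDK1#2.

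The remaining genes were low or did not pass a test. Among the OSC and non-OSC libraries 16 genes were not tested, with 0 to 14 counts a library, and among the hairpin libraries 14 were not, with 0 to 18 counts. Of these, 13 were tested in neither table, namely COL4A3, COL6A5, COL6A6, COL9A1, COL10A1, COL11A1, COL14A1, COL20A1, COL21A1, COL22A1, COL25A1, COL26A1 and COL28A1. At this depth, with floors of 3 counts at 0.267 to 0.372 CPM, a change in them was mostly not detectable. COL26A1 had 0, 1 and 0 counts with shCtrl and 18, 8 and 8 with shPDK1#2. COL17A1, which had been lower in OSCs, was untested in the hairpin table, with 3 to 7 counts a library. COL24A1 was tested only with the hairpins, where it did not pass (adjusted p = 0.77 and 0.353). COL4A4, COL8A2, COL11A2, COL15A1 and COL27A1 were tested in both tables and were called in no comparison. Most members share no 75-base stretch of transcript with other genes, and the largest shares were 15% for COL18A1 (SLC19A1), 1.77% for COL4A3 (MFF-DT) and 1.56% for COL9A3 (TCFL5).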

How the data were processed

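RNA-seq had been run on 15 libraries. The expected counts were made by the authors with RSEM 1.3.3 from reads trimmed with Trimmomatic 0.39 and aligned with STAR 2.7.11a to GRCh38.p14, and were deposited as 2 tables without normalization, per the submitters' processing notes. Annotation release and strandedness are not given in the sources used here. Expected counts were rounded to whole numbers (6.85% and 6.92% were not whole), filtered by filterByExpr, scaled by TMM (factors from 0.981 to 1.02) and fitted per table in edgeR 4.0.16 (R 4.3.3, quasi-likelihood test, Benjamini-Hochberg adjustment, threshold 0.05), with condition as the only term. CPM were also divided by the canonical transcript length in kb to compare genes. A count of 3 in a library was taken as a floor, which covers counting error only. Alternatives were DESeq2 1.42.0, library size alone, other filters, a replicate block, fits of the compared conditions and leaving out each library.

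Whether replicate numbers pair the libraries was not settled. Deviations of same-numbered libraries correlated from -0.0102 to 0.0994 in 3 pairs of the first table and from -0.0442 to 0.136 in 9 pairs of the second. Those of differently numbered libraries ran from -0.0899 to 0.0307 and from -0.084 to 0.0494. Libraries of a condition differed beyond sampling noise and none was merged. The members and lists were chosen with earlier results of these data known. Library values are given for the lysyl hydroxylases and for members called in at least 1 comparison with a mean of at least 5 CPM, and processing genes were named if called with an absolute log2 fold change of at least 1 and a mean of at least 10 CPM, with P4HA1, P4HA2, SERPINH1 and LOX named whatever their values. COL1A2, COL2A1, COL16A1, COL26A1, FKBP10 and the other genes named outside these rules were chosen after their values were seen. Promoter windows are from RefSeq (GRCh38.p14), where 35 of the 47 members matched. Of these, 12 held a CCAAT box and 24 a GC box in the 250 bases before the start of any of their windows. Over all 35116 windows the shares were 32% and 42.6%, counted per window and not per gene, so the counts and shares are not alike. Protein sequences were not analysed here.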

Additional observations from a re-analysis of the deposited data

Results flagged for a closer look

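The direct comparison of the 2 hairpins, in which each effect was tested against the other, set apart, among the genes with library values above, 17 collagen and lysyl hydroxylase genes, LOX and SERPINH1 at an adjusted p under 0.05 in edgeR, 14 of these 19 being higher and 5 lower with shPDK1#2 than with shPDK1#1. The higher genes of the fibrillar class, by log2 fold change, were COL1A2 (2.56), COL3A1 (2.15), COL5A3 (0.41), COL1A1 (0.33) and COL5A2 (0.18). The higher genes of the network class were COL4A6 (0.87), COL4A5 (0.52), COL4A1 (0.16) and COL4A2 (0.11). COL9A3 (0.46) and COL12A1 (0.46) were the higher FACIT genes. PLOD1 (0.27), LOX (0.23) and SERPINH1 (0.25) were higher as well, the latter 2 being among 9 processing genes that were. COL7A1 (-0.81), COL6A1 (-0.23), COL6A3 (-0.22), COL6A2 (-0.17) and COL5A1 (-0.17) were lower. PDK1 itself was lower with shPDK1#2 than with shPDK1#1 by -0.50 ± 0.091 (SE; adjusted p = 0.000237).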

How the results depend on the processing

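Single genes were followed for the lysyl hydroxylases, members called in at least 1 comparison, the named processing genes and PDK1. Members called in no comparison, and genes in comparisons that did not test them, were left out. The number of members called higher in OSCs ran from 22 to 25 over the alternatives. Of 83 results for single genes past the threshold, 73 stayed past it in the same direction under every alternative that gave a value, and the other 10 were lost in at least 1. Of 48 results not past it, 4 passed it in at least 1: COL5A2 with shPDK1#2, and, with shPDK1#1, COL6A1 (adjusted p = 0.0376) and COL6A2 (0.0377) with no filter and SERPINH1 with no filter (0.0391), the replicate block (0.0331) and DESeq2 (0.0358). Leaving out 1 library at a time moved some counts. Collagen and lysyl hydroxylase genes lower in OSCs numbered 1 to 3, with 1 without any single OSC replicate and without replicate 2 or 3 of the non-OSCs. Those lower with shPDK1#2 numbered 3 to 5, with 3 without shCtrl replicate 1 or shPDK1#2 replicate 1. Processing genes higher with shPDK1#2 numbered 8 to 13, with 8 without shCtrl replicate 2, and those lower numbered 0 to 1, with 0 without shCtrl replicate 3. Fewer samples entered these fits, and no other cause was tested.

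No result past the threshold changed sign. Among those that did not pass it, leaving out 1 library turned the sign of the log2 fold change, over the ranges that follow. With shPDK1#1 these were COL18A1 (-0.05 to 0.08), COL1A2 (-0.75 to 0.12), COL2A1 (-0.02 to 0.41) and P3H2 (-0.14 to 0.28), while PLOD2 (0.00 with all libraries) ran from -0.05 to 0.05. With shPDK1#2 they were COL8A1 (-0.02 to 0.11), COL23A1 (-0.02 to 0.15) and COL16A1 (-0.35 to 0.16), and between the hairpins PLOD3 (-0.02 to 0.04) and COL16A1 (-0.24 to 0.27). With the replicate block, 23 collagen and lysyl hydroxylase genes were higher and 3 lower in OSCs, 8 and 1 with shPDK1#1, 14 and 5 with shPDK1#2, and 12 and 5 between the hairpins. The labels do not say what a replicate number shares. COL1A2, COL2A1 and COL16A1, with at most 31 counts in any library, are limited by depth.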
